A study of Mus musculus with 31 samples.

Results

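The RNA of 10 imprinted mouse genes was compared between wild-type embryonic stem (ES) cells and ES cells without Srap1. The genes were H19, Igf2, Kcnq1ot1, Snrpn, Peg3, Meg3, Rian, Peg10, Mest and Igf2r. They were taken by position, as every transcribed locus that overlaps a fixed interval of build mm9 for each gene, which gave 280 of the 179682 loci listed in 5 RNA tables. Wild-type samples list 31, 27, 38 and 31 such loci and the knockout 153. The protein Srap1 carries a SRAP domain, and the series title links it to the removal of 5-methylcytosine oxidized by Tet enzymes. Both groups came from ES cells of strain 129SVxC57/BL6 that were derived together. Both were grown on gelatin with serum, leukemia inhibitory factor, L-ascorbic acid and the inhibitor mixture called 2i, which blocks GSK3β and Mek. The wild-type RNA group holds 4 samples and the Srap1 KO group 2, whose tables are identical and were counted as 1 sample. The labels do not say how many clones or cultures the samples came from.

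Imprinted genes are transcribed mainly from the allele of a single parent, and in mouse this choice is held by cytosine methylation laid down in the egg or the sperm. H19, Meg3, Rian and Igf2r are known as maternally expressed genes, and Igf2, Kcnq1ot1, Snrpn, Peg3, Peg10 and Mest as paternally expressed genes. Methylation at imprinting control regions is known to be unstable in cultured ES cells, so transcript levels of these genes are often read as a sign of the state of a line. The tables give the RNA of both alleles together, so the parent of origin was not measured, and fewer cells that express a gene cannot be told apart from less RNA per cell.

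The values are FPKM, fragments per kilobase and per 1000000 fragments of a library, with a lower and an upper bound. Each table was assembled separately, so the listed loci begin and end at different bases. A locus has 1 FPKM for its whole span, and a span may include introns, which were not placed here. From the bounds, the wild-type tables hold 895779 to 926460 fragments and the knockout 1.08047e+07. A single locus at chr17:39979940-39985777 took 61.4% to 62.2% of the fragments in wild type and 3.51% in the knockout. Outside it and the mitochondrial loci, a scale called here outside the chromosome 17 locus, the wild-type tables hold 333902 to 351084 fragments and the knockout 1.0426e+07. Depth, this locus and genotype therefore move together, and their part in the results below was not tested. At most loci with matching ends, of 77 to 94 for each pair, the wild-type tables differed by about sampling noise. The median difference between 2 of them there, scaled so that sampling noise alone gives 1, was 0.742 to 1.12 standard errors. At 1 to 3 loci of each pair the difference was over 4 standard errors. Loci picked for matching ends may agree better than others. The wild-type samples may thus not be independent cultures, but this was not settled. With 1 distinct knockout sample there is no replicate check, and no p-value is given for the comparison as designed. The level of Srap1 itself and of ES cell markers was not analysed here, because the tables pair no locus with a gene.

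The promoters of the neighbours Meg3 and Rian are shown with that of Igf2r, which is the richest in CG pairs among the matched genes. CG pairs, the sites where mouse DNA is methylated, are in capitals in the 250 bases before each transcription start, from RefSeq on GRCm38.p6, a later build than the mm9 of the RNA tables. The first of 2 Meg3 starts lies after chr12:109540746-109540995 and Rian after chr12:109603695-109603944, both on the plus strand, and Igf2r after chr17:12769707-12769956 on the minus strand.
Meg3: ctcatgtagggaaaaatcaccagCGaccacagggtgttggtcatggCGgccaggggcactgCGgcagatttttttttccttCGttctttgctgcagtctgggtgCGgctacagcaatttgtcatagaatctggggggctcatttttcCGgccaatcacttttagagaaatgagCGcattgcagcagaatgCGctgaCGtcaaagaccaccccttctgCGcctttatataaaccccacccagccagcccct
Rian: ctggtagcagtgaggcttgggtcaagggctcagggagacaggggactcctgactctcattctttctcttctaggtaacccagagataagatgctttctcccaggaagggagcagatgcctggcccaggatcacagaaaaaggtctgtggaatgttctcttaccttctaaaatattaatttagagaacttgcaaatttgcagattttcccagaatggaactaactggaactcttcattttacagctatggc
Igf2r: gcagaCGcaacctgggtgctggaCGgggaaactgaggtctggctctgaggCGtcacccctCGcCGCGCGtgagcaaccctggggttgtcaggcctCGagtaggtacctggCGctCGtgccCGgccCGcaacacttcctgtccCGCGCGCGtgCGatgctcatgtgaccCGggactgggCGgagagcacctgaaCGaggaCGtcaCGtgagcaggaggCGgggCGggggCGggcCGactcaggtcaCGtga
Over 300 bases, these 250 and the next 50, Meg3 has 13 CG pairs, Rian has 0 and Igf2r has 34. A CG pair reads the same on both strands. Across 32851 mouse promoters the median was 7 (quartiles 3 and 20) and 5.43% had none. RefSeq entries were matched for 8 of the 10 genes, with 17 start sites, a median of 8 CG pairs and a range of 0 to 34. These counts describe the sequence only, since no cytosine modification was measured in the tables used here.

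Several of the long noncoding RNAs carry microRNAs, short RNAs that bind messages through bases 2 to 8, the seed. RefSeq places 15 mature microRNAs from 8 genes inside 5 of the imprinted genes, and no seed is shared among them. The following come from H19, Meg3 and Rian, the noncoding RNAs with the largest log2 ratios in size, with the seed in capitals.
mmu-miR-675-5p: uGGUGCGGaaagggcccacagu
mmu-miR-675-3p: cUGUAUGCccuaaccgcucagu
mmu-miR-770-5p: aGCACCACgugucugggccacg
mmu-miR-370-3p: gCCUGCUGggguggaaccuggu
The first 2 lie in H19, the third in Meg3 and the last in Rian. The tables measure the host RNA and not the mature microRNAs. RefSeq also lists 11 small nucleolar RNAs within Rian.

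In the knockout table H19 was higher and Peg10 was lower than in wild type, while Rian was higher and Meg3 lower only under some measures of level. The level of a gene was taken as the FPKM of the locus with the most bases inside its interval. These loci need not share bases between samples. A gene was called where the knockout lay outside all 4 wild-type values and the log2 ratio of FPKM + 1, a scale that understates change at low levels, was at least 1 in size. A locus was listed in all 4 wild-type tables for 6 of the 10 genes, Kcnq1ot1, Meg3, Rian, Peg10, Mest and Igf2r, so the call could be made for these. Rian was called higher, and Meg3 and Peg10 were called lower, which is 3 of 6. Of 3461 transcribed regions put under the same rule, 12.8% were called higher, 19.6% lower and 32.4% in either direction. Regions are merged from wild-type loci, whereas the genes are fixed intervals that also hold bases no wild-type sample lists. The shares and medians of regions, here and below, are therefore not a fully like background, above all for summed fragments. With each wild-type sample set in turn against the others by the same rule, 6.21% to 7.37% of regions were called. Of the 6 genes, 1 was called for wild-type sample 3 and 0 for each of the others. The knockout lay above the wild-type range for Rian and Igf2r and below it for Meg3, Peg10, Kcnq1ot1 and Mest, against 29.4% of regions above and 36.8% below. The median log2 ratio was -0.73 over the 6 genes and -0.10 over the regions. H19 and Peg3 lacked a locus in 1 of the 4 wild-type samples each, and Igf2 and Snrpn lacked one in all 4.

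**Figure D1:**
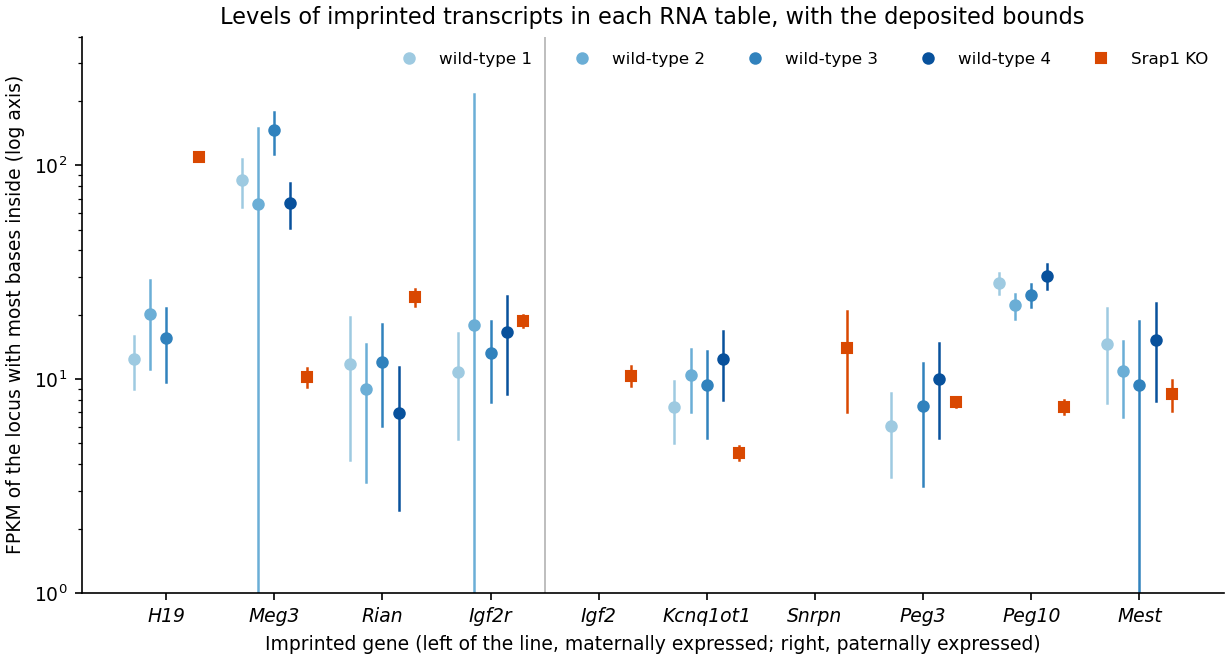
Level of each gene, as FPKM of the locus with the most bases inside its interval (log axis), in the 4 wild-type tables (circles) and the Srap1 KO table (squares); vertical lines are the deposited lower and upper bounds, those below 1 FPKM run off the axis, and a missing point means that no locus is listed. H19 stands at 109 FPKM in the knockout against 12.4 to 20.1 in wild type, and Peg10 at 7.42 against 22.2 to 30.5.

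The order of levels differed between the groups. In each wild-type table Meg3 was highest and Peg10 next, whereas in the knockout H19 was highest, followed by Rian, Igf2r, Snrpn, Igf2, Meg3, Mest, Peg3, Peg10 and Kcnq1ot1. The other wild-type values lay between 6.06 and 20.1 FPKM, their ranges overlapped, and their places changed from table to table. In the knockout the bounds of neighbours overlapped all along the order from Igf2r to Peg10, for example for Igf2r (17.5 to 19.9) and Snrpn (7.03 to 20.9), and did not for H19, Rian and Igf2r at its top or for Peg10 and Kcnq1ot1 at its end.

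**Figure D2:**
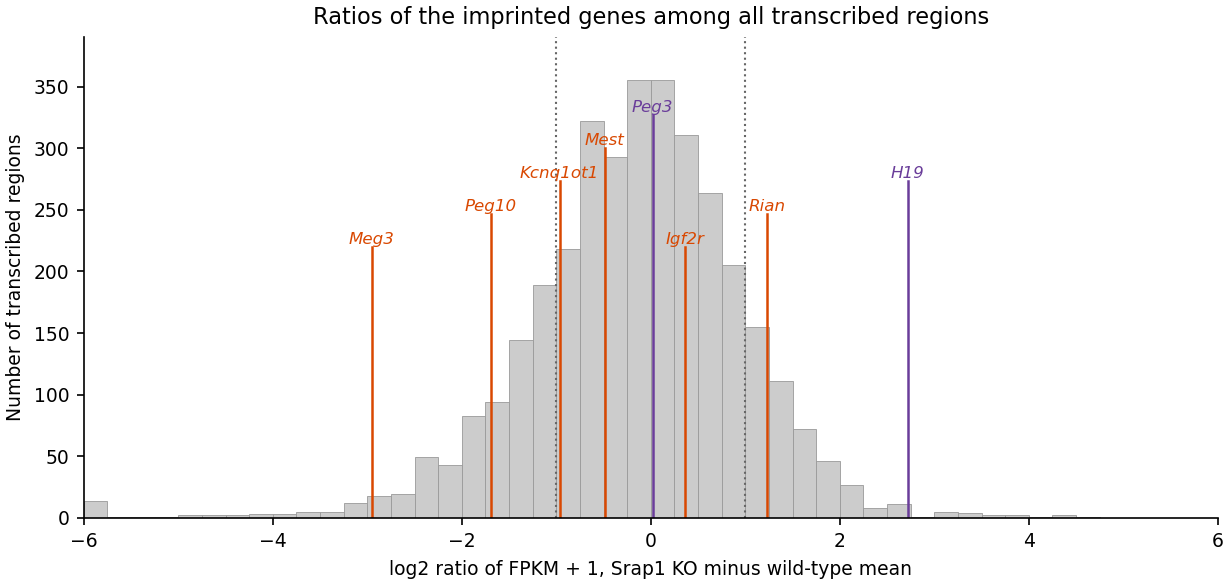
Number of transcribed regions by log2 ratio of FPKM + 1, Srap1 KO minus the wild-type mean (grey bars; the leftmost bar also holds lower values); vertical lines are the genes, orange with a locus in all 4 wild-type tables and purple with one in 3, and dotted lines mark a log2 ratio of 1 in either direction. H19 lies at 2.72 and Meg3 at -2.95, near the ends of the distribution, and Mest, Peg3 and Igf2r lie near its middle.

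H19 is a long noncoding RNA that is abundant in the embryo and is transcribed beside Igf2. Its widest locus had 12.4, 20.1 and 15.5 FPKM in wild-type samples 1 to 3, none was listed in wild-type sample 4, and the knockout had 109 (bounds 106 to 112). The knockout locus, at chr7:149761424-149763982, ran over nearly the whole gene, as did that of wild-type sample 1. The knockout was far above all 3 wild-type values. The log2 ratio to the 3 was 2.72, and 0.635% of 3934 regions measured in the same 3 tables had a ratio as high or higher. With wild-type sample 4 left out, H19 was called higher, under a rule that called 33.1% of those regions. Over the same bases, the knockout was above the upper bound of all 6 wild-type loci and at least 2-fold higher at each. Over all wild-type loci it was at least 2-fold higher at 15.1%. Scaled to the fragments outside the chromosome 17 locus, the wild-type values became 33.4, 52.4 and 41.7 FPKM and that of the knockout 113, a log2 ratio of 1.42. On that scale 5 of the 6 loci remained at least 2-fold lower in wild type, and the sixth, of 300 bases in wild-type sample 3, turned the other way, with a log2 ratio of -0.23. Summed over the gene, H19 had 58.9, 39.3 and 64.6 implied fragments per 1000000, a measure that ignores length, in wild type and 463 in the knockout. By this measure the median region had a log2 ratio of 1.24. Apart from that 300-base locus, H19 was higher in the knockout in each of these measures.

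Meg3 and Rian are long noncoding RNAs of the Dlk1-Dio3 cluster, a region whose imprint is known to be lost in some ES cell lines. The widest Meg3 locus had 85.5, 65.8, 146 and 67.0 FPKM in wild type and 10.3 in the knockout, a log2 ratio of -2.95 that 1.65% of regions matched or went below. All wild-type values were above the knockout value, though the bounds in wild-type sample 2, 0 to 150, took it in. Those loci do not cover the same bases, and the result changes with them. The wild-type ones span up to 26963 bases and start near the 5′ end, apart from a locus of 9081 bases in wild-type sample 3, whereas that of the knockout is the 3′ stretch chr12:110794742-110809968. At the 5′ end the knockout listed 27.8 FPKM over chr12:110781908-110785275. The 8 wild-type loci with over 50% of their bases inside it had 8.07 to 34.9 FPKM, so the knockout lay within their range. Only the highest of them, 727 bases in wild-type sample 2 (bounds 20.1 to 49.8), was above the knockout value. The highest knockout value, 864 FPKM, belonged to a locus of only 80 bases. Over the same bases the knockout was at least 2-fold higher at 3 of 16 wild-type Meg3 loci and at least 2-fold lower at 5. Over all wild-type loci these shares were 15.1% and 22.4%. As fragments per 1000000 Meg3 had 131, 57.7, 169 and 128 in wild type and 230 in the knockout, a log2 ratio of 1.02. That is opposite in sign to the FPKM, but below the median region at 1.24. The value of 57.7 rests on a locus whose wide bounds give only 2.47 implied fragments, and without wild-type sample 2 the ratio was 0.70, under the threshold. Counted outside the chromosome 17 locus it was -0.33, close to the median region at -0.09. A difference in Meg3 RNA as a whole was therefore not separable from the choice of locus.

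By the span of listed loci, Rian was sparse in wild type and almost end to end in the knockout. Spans may include introns, so they do not give the share of bases that were read. The widest knockout locus, for example, had 482 implied fragments over a span of 33612 bases. Loci covered 5.23%, 1.29%, 1.45% and 2.50% of its interval in wild type and 93.7% in the knockout, where 36 of 40 loci met no wild-type locus. Over all 143073 knockout loci that share was 67.4%. Of the 40, 33 would have given fewer than 10 fragments at wild-type depth, and 32 of these met none, against 71.2% of all knockout loci as shallow. Of the other 7, 4 met none, among them a locus of 33612 bases with 40.7 fragments expected. Of all knockout loci of at least 300 bases, 47.4% with 10 to 20 fragments expected and 25.4% with 20 to 50 met none. The parts of depth and of introns in the sparse listing of Rian were not tested. The widest locus had 11.8, 8.98, 12.1 and 6.91 FPKM in wild type and 24.2 in the knockout, a log2 ratio of 1.23. None of those wild-type loci shares a base with that of the knockout, chr12:110842158-110875770, so the call compares different stretches of Rian. The call was lost, at 0.93, by the mean FPKM over all covered bases and, at 0.98, with a pseudocount of 5 FPKM. At or above that ratio were 8.67% of regions. A stretch near the 3′ end was listed in all 5 tables and gives the closest match of bases. There the knockout had 32.2 FPKM (bounds 29.7 to 34.8) over chr12:110898735-110899825, and the wild-type loci within it had 15.9, 8.98, 12.1 and 13.7. The highest wild-type upper bound was 23.8, so the groups did not overlap. Across the gene all 7 wild-type loci were lower than the knockout over the same bases, 5 of them at least 2-fold, against 15.1% of all wild-type loci. Scaling to fragments outside the chromosome 17 locus brought the log2 ratio of Rian to -0.037, where the median region lay at -1.41. As fragments per 1000000 outside that locus, Rian had 119, 28.5, 47.1 and 58.8 in wild type and 357 in the knockout.

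**Figure D3:**
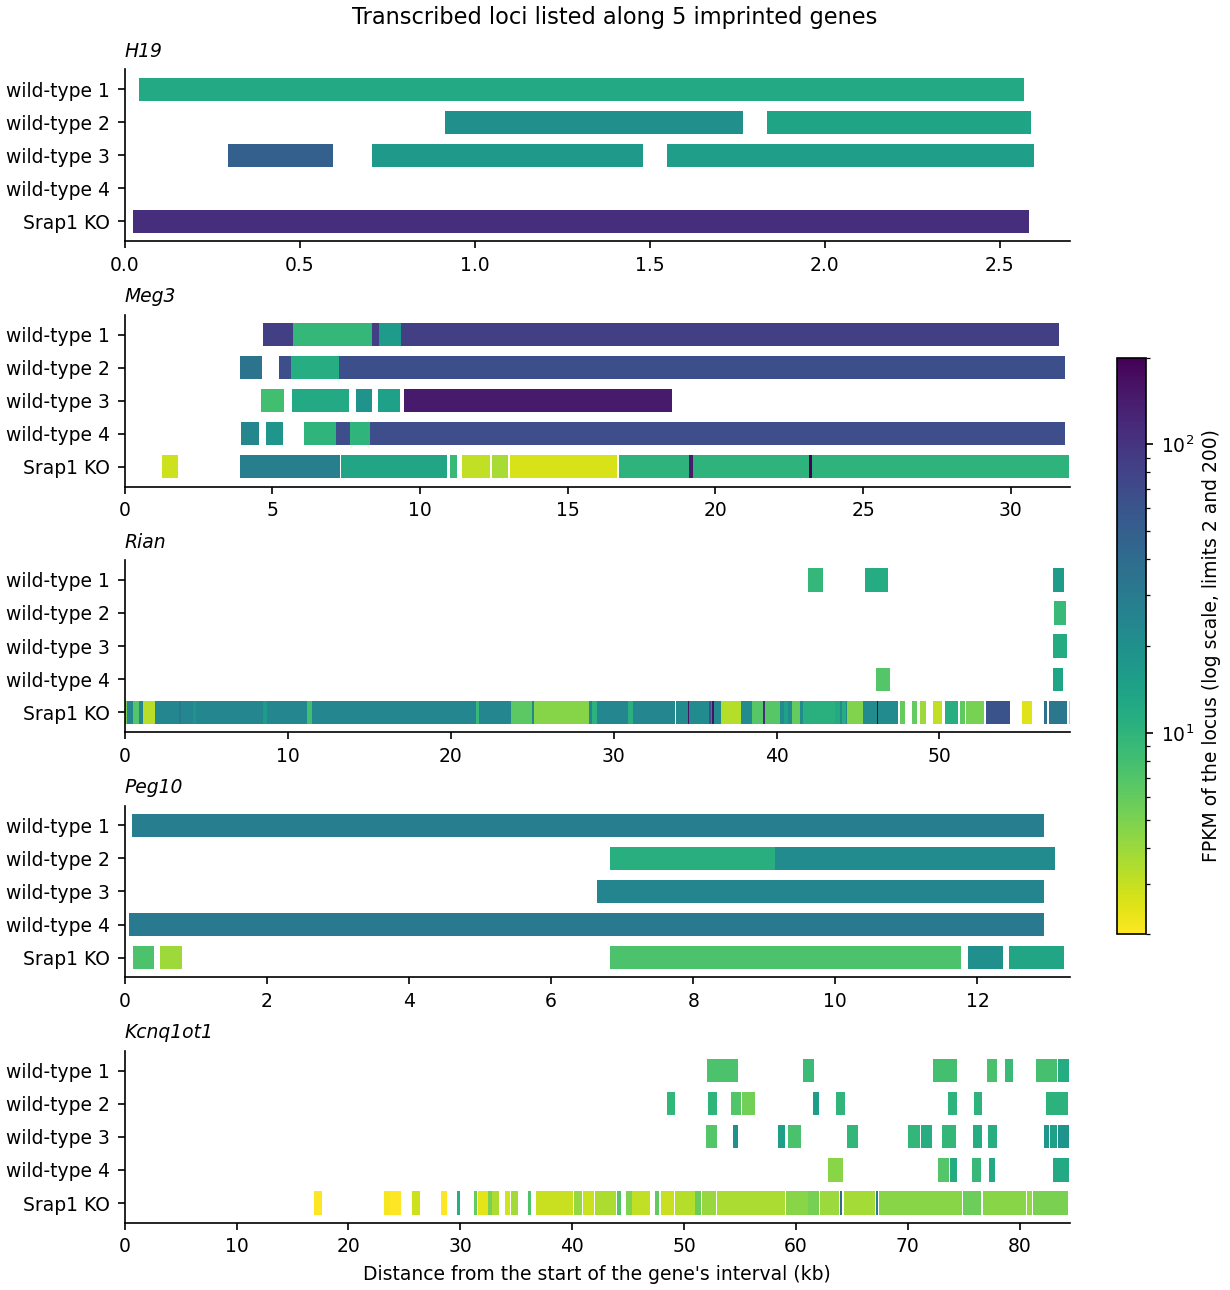
Loci listed along H19, Meg3, Rian, Peg10 and Kcnq1ot1 in each table, by distance from the start of the gene's interval in kb, coloured by FPKM on a log scale from 2 to 200. The spans of listed loci, which may include introns, take in 93.7% of the Rian interval in the knockout and at most 5.23% in wild type. The widest Peg10 locus has 22.2 to 30.5 FPKM in wild type and 7.42 in the knockout.

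Igf2r encodes the receptor that takes insulin-like growth factor 2 to the lysosome. Its widest locus had 10.8, 17.9, 13.3 and 16.6 FPKM in wild type and 18.7 in the knockout, above all 4 but with a log2 ratio of only 0.36. The widest loci of wild-type samples 1 and 3 share no base with that of the knockout. The bounds of the knockout overlapped those of 3 wild-type samples, and in wild-type sample 2 the bounds, 0 to 215, carry no information. Over the same bases 39 of 45 wild-type Igf2r loci were lower than the knockout, 10 of them at least 2-fold, and none was 2-fold higher. Many of these comparisons share a knockout value, such as 18.7 for the locus of 54066 bases, and are not independent. A knockout locus of 11035 bases that enters some of them has bounds of 0 to 795. Any introns inside these spans have no level of their own. Of all 34592 wild-type loci, 15280 were lower than the knockout, and 15.1% were at least 2-fold lower. Scaled outside the chromosome 17 locus the ratio was -0.94, where the median region lay at -1.41. Igf2r overlaps Airn, a noncoding RNA transcribed from the other strand, and the tables give no strand, so their reads cannot be told apart.

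Igf2 encodes insulin-like growth factor 2, a growth factor of the embryo. The knockout table listed 3 Igf2 loci and no wild-type table listed any. The knockout loci had 21.4 FPKM over 1584 bases at chr7:149836682-149838266 (bounds 19.7 to 23.1), 10.4 over 1958 bases at chr7:149838368-149840326, and 126 over only 143 bases. At wild-type depth the first would have given 55.7 fragments, or 21.7 by the fragments outside the chromosome 17 locus. Of the knockout loci of at least 300 bases with 50 to 100 fragments expected, 8.03% met no wild-type locus, of those with 20 to 50 expected, as at the second Igf2 locus with 29.4, 25.4%, and of those with 20 to 50 expected on the scale outside the chromosome 17 locus, 7.11%. Igf2 thus belongs to a minority of such loci, and no fold is given because it has no listed wild-type level.

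Snrpn encodes a protein of the splicing machinery in neurons and other cells. It was listed as 21 knockout loci, 9 of at least 300 bases, and in no wild-type table. The widest had 14.0 FPKM (bounds 7.03 to 20.9), and the highest of at least 300 bases had 25.7. All 21 together would have given 61.5 fragments at wild-type depth, and 20 of them fewer than 10 each. Of all knockout loci with fewer than 10 fragments expected, 71.2% met no wild-type locus, and all 20 of Snrpn did so. The remaining Snrpn locus had 10.1 expected. Of knockout loci of at least 300 bases with 10 to 20 expected, 47.4% met none. Whether Snrpn differed was not determined, and no fold is given because it has no listed wild-type level.

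Kcnq1ot1 is a long noncoding RNA known for silencing neighbouring genes on the paternal chromosome. Its widest locus had 7.41, 10.5, 9.40 and 12.4 FPKM in wild type and 4.52 (bounds 4.18 to 4.85) in the knockout. Of these wild-type loci, only that of wild-type sample 3 shares bases with that of the knockout. The knockout was below all 4 and outside all their bounds, and the log2 ratio of -0.97 fell just short of the threshold. Over the same bases 33 of 35 wild-type Kcnq1ot1 loci were higher than the knockout, 16 of them at least 2-fold, against 22.4% of all 34592 wild-type loci. Of those 34592, 19312 were higher than the knockout. Bases enter this count only where a wild-type sample lists a locus, which at low levels favours high wild-type values. So the count alone cannot show a lower level in the knockout. At the 5′ end the knockout had 5.10 FPKM over chr7:150479174-150482353, and the 7 wild-type loci there had 7.80 to 18.6. The knockout listed more of the gene, however. Its 37 loci covered 61.4% of the interval, against 6.87% to 13.2% in wild type. As fragments per 1000000 Kcnq1ot1 had 168, 142, 228 and 94.2 in wild type and 368 in the knockout, a log2 ratio of 1.28. This was opposite in sign to the FPKM, but close to the median region at 1.24. Outside the chromosome 17 locus the log2 ratio was -0.07, where the median region lay at -0.09. Its reads cannot be told apart from those of Kcnq1, which it overlaps on the other strand.

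Peg10 is derived from a retrotransposon and is needed for the placenta. Its widest locus had 28.2, 22.2, 24.8 and 30.5 FPKM in wild type and 7.42 (bounds 6.89 to 7.95) in the knockout, a log2 ratio of -1.69. The knockout was below the lower bounds of all 4 wild-type samples, the lowest of which was 19.2, and 8.21% of regions had a ratio as low or lower. Wild-type samples 1 and 4 listed Peg10 as a single locus of 12842 and 12885 bases, and the knockout as 5 loci, the widest at chr6:4704127-4709070. Over the same bases 4 of 5 wild-type Peg10 loci were at least 2-fold higher than the knockout, against 22.4% of all wild-type loci. As fragments per 1000000 Peg10 had 350, 276, 298 and 239 in wild type and 104 in the knockout. Peg10 is the single gene of the 6 that was lower in the knockout in every setting tried, with log2 ratios from -3.02 to -0.35. No other RefSeq gene overlaps it.

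Peg3, a zinc-finger protein gene, and Mest, an enzyme gene of the embryonic mesoderm, are both paternally expressed. Peg3 had 6.06, 7.51 and 10.0 FPKM in wild-type samples 1, 3 and 4 and 7.83 in the knockout, inside the wild-type range, and it was not called because wild-type sample 2 lists no locus. Over the same bases 0 of 6 wild-type Peg3 loci differed 2-fold. By fragments per 1000000 its log2 ratio was 2.31, where the median region of the same wild-type samples lay at 1.21. Outside the chromosome 17 locus the ratio of Peg3 was 0.97, so the measures differ for Peg3 as well. Mest had 14.6, 10.9, 9.40 and 15.3 FPKM in wild type and 8.50 in the knockout, just below all 4, with bounds that overlapped those of all 4, and it was not called. Its log2 ratio was -0.49 by FPKM and 2.38 by fragments per 1000000, where the median region lay at 1.24. The fragment measure counts a knockout locus of 70233 bases that begins in Mest and runs on past its interval. That locus also takes in bases outside Mest, so neither its fragments nor its FPKM are those of Mest alone. RefSeq also lists Copg2 as overlapping Mest.

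**Figure D4:**
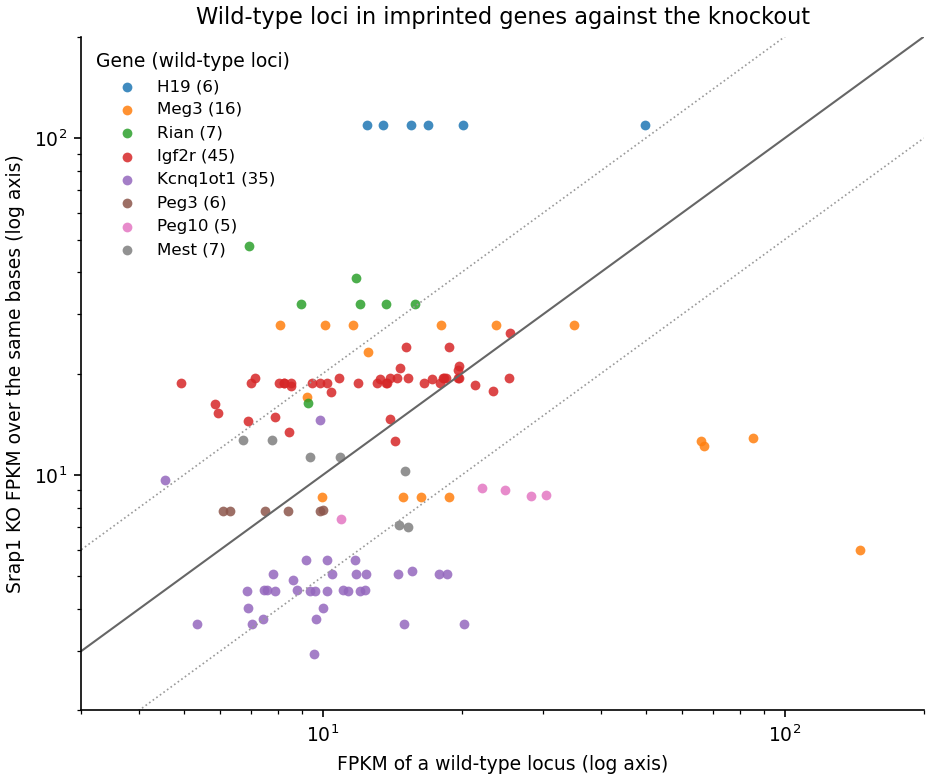
FPKM of each wild-type locus in an imprinted gene (horizontal, log axis) and the Srap1 KO FPKM averaged over the same bases (vertical, log axis); each point is a single wild-type locus, the solid line marks equal values and the dotted lines 2-fold differences. All 6 H19 points and all 7 Rian points lie above the solid line, and 33 of 35 Kcnq1ot1 points and all 5 Peg10 points lie below it. Only bases that a wild-type sample lists are shown, which at low levels favours high wild-type values. A knockout locus gives a single value to all the bases it spans.

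Taking all 127 wild-type loci in the genes, the knockout was at least 2-fold higher over the same bases at 24, or 18.9%, and at least 2-fold lower at 26, or 20.5%. Over all 34592 wild-type loci with a knockout locus these shares were 15.1% and 22.4%, so the genes as a list lay near the background. Scaled outside the chromosome 17 locus, 6 of the 127 were 2-fold higher and 73 were 2-fold lower, against 2.41% and 66.2% of all loci. Several loci can come from 1 gene, and they are not independent. By parent of origin, the knockout was higher over the same bases at all 6 H19, all 7 Rian and 39 of 45 Igf2r loci, and at 7 of 16 Meg3 loci, among the maternally expressed genes. Among the paternally expressed ones it was higher at 2 of 35 Kcnq1ot1, 0 of 5 Peg10, 3 of 6 Peg3 and 4 of 7 Mest loci. All 4 of those Mest loci overlap the knockout locus of 70233 bases that runs on past Mest. Of all 34592 wild-type loci, the knockout was higher at 15280. These counts take only bases that a wild-type sample lists. Many loci also share a knockout value, as a knockout locus has 1 FPKM for its whole span, and all 6 H19 loci were set against 1 knockout locus. No test was made of a difference between the parents.

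**Figure D5:**
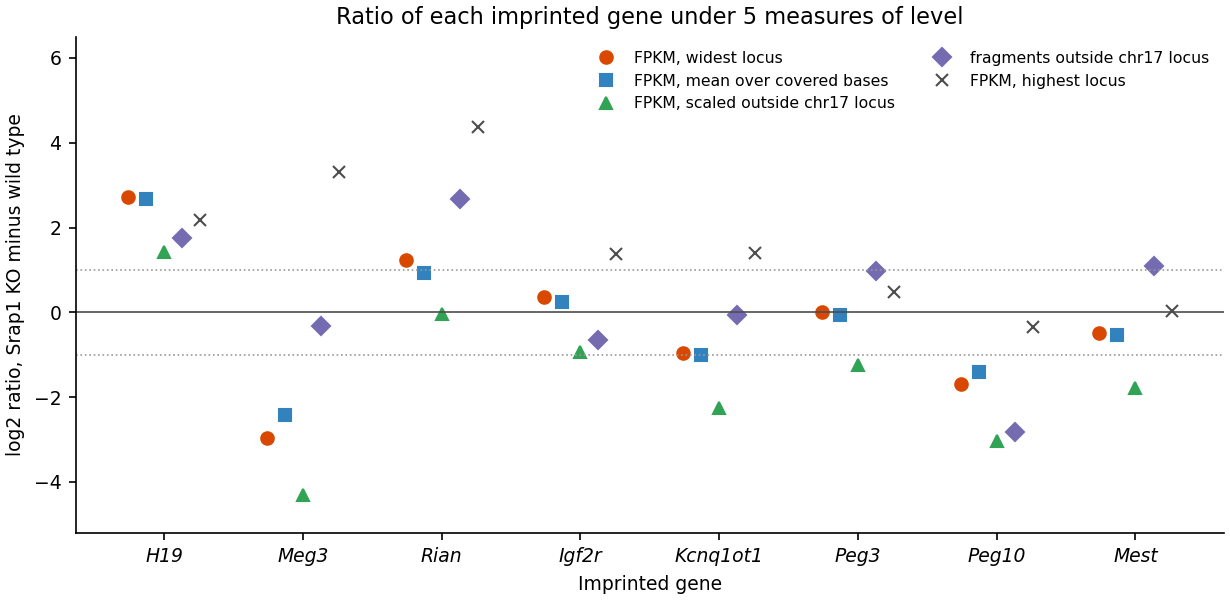
Log2 ratio, Srap1 KO minus wild type, of the 8 genes with a wild-type locus under 5 measures of level (symbols); dotted lines mark 1 in either direction. H19 is above and Peg10 below 0 in all 5, and Meg3 ranges from -4.30 to 3.31.

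Control libraries show the reads that these intervals collect without a specific antibody. In the IgG library of immunoprecipitated Srap1 KO DNA, a control made without an antibody to modified cytosine, reads with a mapping quality of at least 30 came to 3.68 per kb over the 10 intervals (1303 reads, exact Poisson 95% interval 3.48 to 3.88). They ranged from 2.00 per kb in Snrpn to 4.83 in Igf2r (4.38 to 5.31), where the median 10 kb bin of chromosome 7 had 3.3 and that of chromosome 17 had 2.8. H19 had 4.44 per kb, Peg10 4.29, Meg3 4.25 and Rian 2.93. None of the 1730 windows of the IgG chromatin library overlapped a gene of the list. These intervals cover counting error in 1 library each.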

How the data were processed

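RNA of 4 wild-type samples and 1 distinct Srap1 KO sample was used. Members and lists were chosen with earlier results of these data known. The authors' deposited FPKM tables are Cufflinks tables of loci with bounds, per the file headers. Version 2.2.1.0 of Cufflinks, version 0.12.8 of Bowtie and version 0.3.5 of Trim Galore are in the submitters' processing notes, which give no order or settings, and libraries had 12 cycles of PCR per the labels' protocols. The mapping quality in the deposited IgG read list is a score from the authors' alignment. The IgG window list gives positions only, without the rule that chose them.

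Loci were placed by overlap with mm9 intervals (bedtools 2.31.1, Python 3.11.15, pandas 2.3.3). Implied fragments were taken as the square of FPKM over its standard deviation, read as the distance to the upper bound divided by 2. This fails where bounds are wide, as at the widest Meg3 and Igf2r loci of wild-type sample 2. Regions are merged wild-type loci present in all 4 wild-type tables, 3715 in number, of which 3461 met a knockout locus. The pseudocount was 1 FPKM. The knockout FPKM over the same bases is the mean over overlapping knockout loci weighted by shared bases. limma 3.58.1 in R 4.3.3 was an alternative, with 3 residual degrees of freedom, a lone knockout assumed to vary like wild type, and Benjamini-Hochberg adjustment. In data simulated from the loci of wild-type sample 1, the rule called 27 of 50 true 2-fold rises and 17 of 50 true 2-fold falls. It called 50 of 50 4-fold changes in each direction and 2 of 7408 unchanged regions. The simulated samples shared 1 set of loci and did not differ at the chromosome 17 locus. The outcome therefore does not cover separate assembly or that difference. All 10 genes are named by the rule that each member is described. Other imprinted genes and cell type markers were not analysed here, because no table used places them on mm9. The other samples of the series were not analysed here.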

Additional observations from a re-analysis of the deposited data

Results flagged for a closer look

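Of 38 quantities examined in groups of 4 wild-type samples, 4 had 1 sample apart from the other 3. Where the other 3 values are equal, as in the counts of loci here, any difference gives a flag, so no chance rate is given. Wild-type sample 2 listed 0 Peg3 loci where the others listed 2, 2 Peg10 loci where the others listed 1, and 9 Igf2r loci where the others listed 12. In wild-type sample 3 loci covered 40.9% of Meg3, against 84.3% to 85.5% in the others, where its widest Meg3 locus spanned 9081 bases.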

How the results depend on the processing

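The count of genes called, 3 of 6 as reported, was 5 by implied fragments per 1000000, with 4 higher and 1 lower, where the median of all regions was 1.24 and 1996 regions were called higher and 214 lower. It was 3 to 4 when each wild-type sample was left out in turn, and 4 (0 higher) when scaled to the fragments outside the chromosome 17 locus, where 34 regions were called higher and 2303 lower. The split of regions, 442 higher and 679 lower as reported, was 526 and 591 after median scaling and 382 and 375 after quantile normalization. Meg3 reversed to 3.31 by the highest locus and to 1.02 by implied fragments per 1000000, and to 0.70 by the same without wild-type sample 2 (5 of 7 genes called, chosen after seeing the data), and Rian to -0.037 by scaling outside the chromosome 17 locus. Rian also lost its call at 0.93 by the mean over covered bases and at 0.98 with a pseudocount of 5 FPKM. By implied fragments outside that locus, an alternative chosen after seeing the data, Rian, Peg10 and Mest were called, and Meg3 was not. limma gave log2 ratios of -2.95 for Meg3, -1.69 for Peg10 and 1.23 for Rian. It sets 1 knockout sample against wild-type samples that may not be independent cultures, so it neither supports nor removes a call between genotypes. IgG reads were 3.81 per kb with all mapping qualities. The causes were not tested. Depth limits genes with few wild-type fragments: the lowest listed wild-type FPKM was 1.55 to 2.11, against 0.314 in the knockout. No paired analysis was possible because the knockout has 1 distinct table.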

Other observations

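Between neighbouring genes of the same cluster, loci are given by position only. No table lists a locus in the 71900 bases between H19 and Igf2. In the 544000 bases between Igf2 and Kcnq1ot1, where RefSeq lists 13 genes, the knockout lists 10 loci and wild type 1, 2, 1 and 2. The highest of the knockout, chr7:150238738-150248831, had 35.3 FPKM (bounds 31.2 to 39.3), against 86.4 to 114 in the 4 wild-type tables. In the 32000 bases between Meg3 and Rian, where RefSeq lists 15 microRNA genes, the knockout lists 25 loci and wild type 1, 1, 3 and 1. The highest of the knockout, chr12:110838020-110842050, had 52.1 FPKM (bounds 32.9 to 71.4), and no wild-type table lists a locus there, where 2.48 fragments would have been expected. In all, 143073 loci are listed for the knockout and 8882 to 9295 for wild type, and of knockout loci with fewer than 10 fragments expected 71.2% met no wild-type locus.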
